A study of Mus musculus with 5 samples.

Results

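The genes described here encode secreted proteins of the matrix that surrounds the cells of the embryonic mouse heart. *Postn* (periostin), *Tnc* (tenascin C), *Sparc* (SPARC), *Fn1* (fibronectin) and *Thbs1* (thrombospondin 1) encode matricellular and adhesive glycoproteins. *Fbln1* and *Fbln2* (fibulins), *Fbn1* and *Fbn2* (fibrillins) and *Eln* (elastin) encode proteins of elastic fibres and of the microfibrils on which these fibres are laid down. The genes were taken by name, with no threshold on their levels. They are 10 of the 13486 genes that had a matched tag in the series, and all 10 had tags in at least 1 library.

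Tag-seq was carried out on 5 libraries of dissected heart tissue at embryonic day 10.5 (Theiler stage 17), each from at least 3 pooled litters and each the only library of its group. The atrioventricular canal (AVC), outflow tract (OFT), atria and ventricles came from wild type embryos of strain C57BL/6 (C57BL/6J females in the study's methods). The *Twist1* null AVC came from embryos of strain ICR with the *Twist1* Knockout genotype, so strain and genotype cannot be told apart in it. *Twist1* encodes a basic helix-loop-helix transcription factor of the cushion mesenchyme, and the design sets the cushion-forming regions against the chambers and the null canal against the wild type canal.

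The libraries hold 6075421 (AVC), 5267618 (OFT), 4666514 (atria), 4223810 (ventricles) and 12977237 (null) high quality (HQ) tags. Levels are given as TPM, tags per 1000000 HQ tags. The smallest count listed for a tag type is 6, which stands for 0.988, 1.14, 1.29, 1.42 and 0.462 TPM in these libraries. A gene below that depth is not detectable here and is called not listed. Intervals are exact Clopper-Pearson 95% intervals on the counts. They cover counting error only, since the spread between embryos was not measured and PCR duplicates are counted like molecules.

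In the heart at this stage, endocardial cells of the AVC and OFT change into mesenchyme and move into a thick matrix, the endocardial cushion, from which valves and septa arise. Fibronectin and periostin are bound by integrins and carry cell adhesion and movement, while tenascin C, thrombospondin 1 and SPARC modulate how cells attach to the matrix. Fibrillins assemble into microfibrils that also hold latent TGF-beta, fibulins link fibres to other matrix proteins, and elastin is the core of the elastic fibre in the great arteries.

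Each value rests on short sequence tags. The cDNA was made with oligo(dT) beads and cut with NlaIII at its recognition site. The fragments held on the beads give the tags, each the 17 bases that follow the site. The tag nearest to the 3' end of a transcript is called the 3'-most tag. It carried most of the reference tags of a gene in every library that listed the gene, except for *Fbln1* in the OFT, atria and ventricles and *Fbn2* in the null. Tags of 6 of the genes, among those that carry differences between libraries or between transcripts, are printed here in lower case, 5' to 3', with the NlaIII site in capitals.
Tnc, 3'-most tag in the 3'UTR: CATGgtcattctccgagccag
Thbs1, 3'-most tag in the 3'UTR: CATGgatttttccaaatctct
Fn1, 3'-most tag in the 3'UTR: CATGccaacgctttactactg
Eln, 3'-most tag in the 3'UTR: CATGtctcaccaccccacctc
Sparc, 3'-most tag in the 3'UTR: CATGcaaactctcacagcaat
Sparc, internal tag in the coding sequence: CATGgaacattgcaccacacg
Fbln1, tag of transcript Fbln1-202: CATGcagctggccatcaccgc
Fbln1, tag of transcript Fbln1-201: CATGcctcgggggcacttgga

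On GRCm38 the *Tnc* tag lies at chr4:63960096-63960116 in exon 26 (minus strand) and the *Thbs1* tag at chr2:118125983-118126003 in exon 22 (plus strand). The *Fn1* tag lies at chr1:71585561-71585581 in exon 46 (minus strand) and the *Eln* tag at chr5:134702889-134702909 in exon 37 (minus strand). The *Sparc* tags lie at chr11:55394552-55394572 in exon 10 and chr11:55395881-55395901 in exon 9 (minus strand). The *Fbln1* tags lie at chr15:85251595-85251615 in exon 15 of Fbln1-202, which is coding, and at chr15:85285669-85285689 in exon 17 of Fbln1-201, which is 3'UTR (plus strand). The Fbln1-201 tag is the sixth site from the 3' end of that transcript, and no library listed a tag of 1 gene from the sites nearer to that end.

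The libraries were first compared with their labels. The AVC genes *Tbx2*, *Bmp2* and *Tbx3* summed to 331 (AVC) and 193 TPM (null), against 50.5 in the OFT and 11.8 in the atria, and none was listed in the ventricles. *Isl1* and *Rgs5*, which mark the OFT, were at 72.9 and 178 TPM there and at 6.86 TPM or less elsewhere. *Myl2*, the regulatory light chain of ventricular myosin, was highest in the ventricles at 6196 TPM. The atria went against 2 of their 3 markers. *Nppa*, the atrial natriuretic peptide gene, was at 18.2 (atria) and 316 TPM (AVC), and *Tbx5* at 9.86 and 61.1 TPM, while *Nr2f2* was highest in the atria at 190 TPM. The ventricles went against *Irx4*, which was at 2.84 TPM there and 27.2 in the AVC.

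The atria library also stood apart in composition. The 8 erythroid marker genes took 22.0% of its tags and 4.75% of ventricle tags, while they took 0.366% of AVC, 0.431% of OFT and 2.98% of null tags, with *Hbb-y* at 155319 TPM in the atria. Over all genes the median log2 ratio to the chambers (atria and ventricles summed) was 0.99 (AVC) and 0.88 (OFT). TMM normalization (trimmed mean of M values), which scales libraries by the bulk of genes rather than by their totals, moved these ratios by -0.95 and -0.86. Ratios to the chambers are therefore read against these medians, and use HQ totals unless TMM is named. Bulk tissue does not separate fewer cells of a type from less RNA per cell, so these cannot be told apart in any ratio below.

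**Figure D1:**
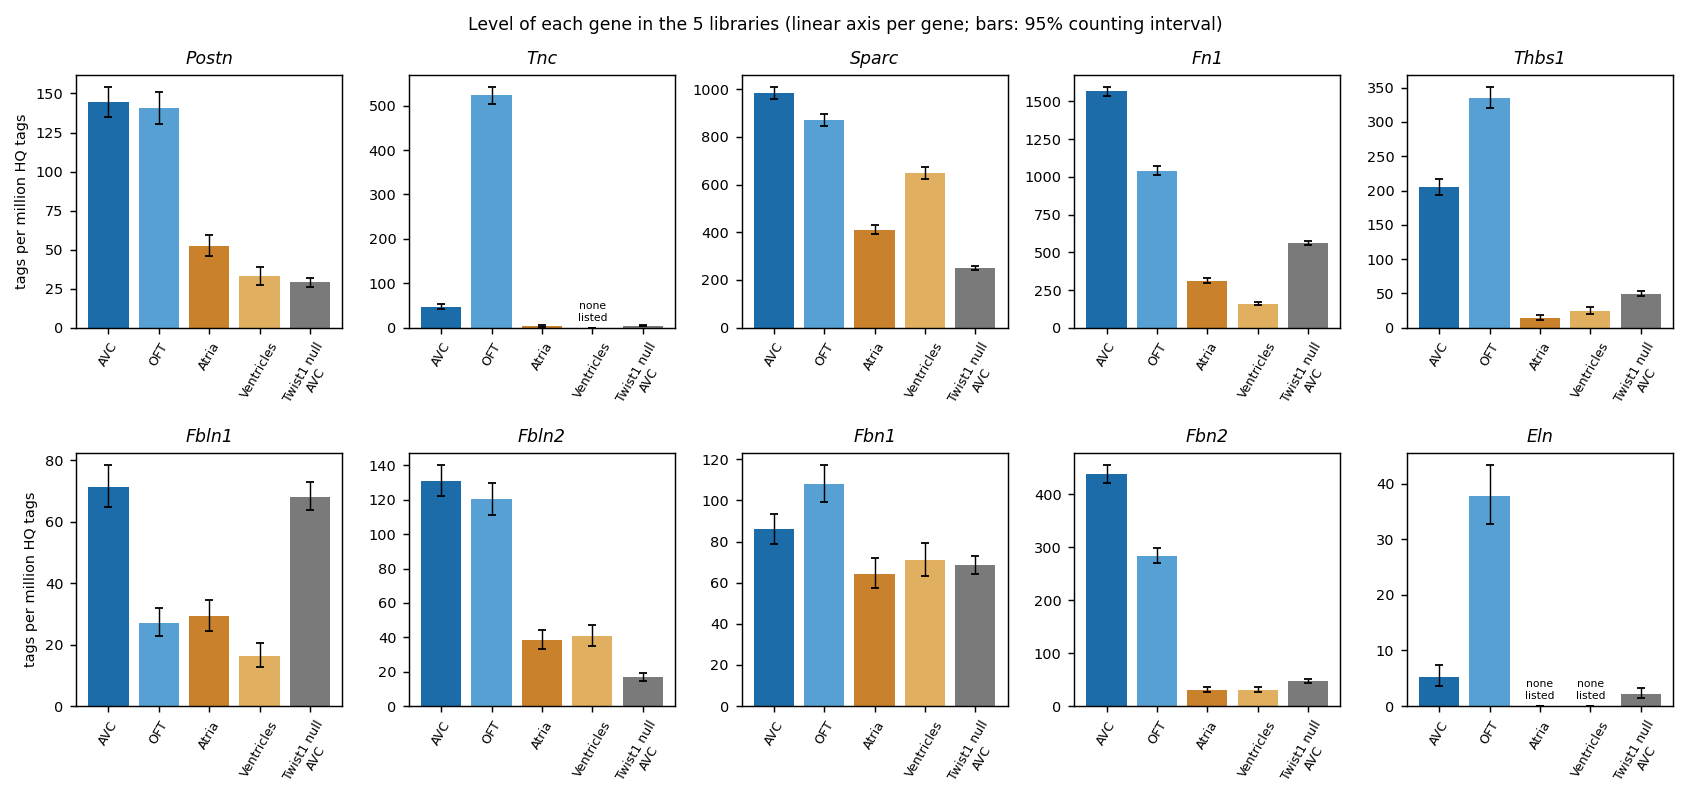
Level of each of the 10 genes in the 5 libraries from reference tags, in TPM on a linear axis of its own per gene that starts at 0; error bars are 95% counting intervals. The AVC and OFT bars are above both chamber bars for every gene except *Fbln1*, whose OFT level of 27.1 TPM is below the 29.1 TPM of the atria, and the null bar is below the wild type AVC bar for all 10 genes, though *Sparc* is at 1170 TPM in the null and 985 in the AVC once the substituted null tag is counted.

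With HQ totals as library sizes, most of these transcripts were higher in the AVC than in the chambers. At adjusted p under 0.05 (edgeR's two-sided exact test at a dispersion of 0.12, Benjamini-Hochberg over all genes tested), 7 of the 10 genes were higher in the AVC than in the chambers and none was lower. Over all genes 35.6% were called higher and 5.53% lower. The genes were *Postn*, *Tnc*, *Fn1*, *Thbs1*, *Fbln2*, *Fbn2* and *Eln*. Under TMM normalization 4 of the 10 were higher, *Tnc*, *Thbs1*, *Fbn2* and *Eln*, beside 19.4% of all genes higher and 11.9% lower. With erythroid tags taken out of the totals, *Tnc*, *Thbs1*, *Fbn2*, *Fn1* and *Eln* were called. With the atria alone as chambers *Postn* was not called, and with the ventricles alone *Fbln1* was called and *Fbln2* was not. For the OFT against the chambers the count was 5 of 10 higher (*Tnc*, *Fn1*, *Thbs1*, *Fbn2* and *Eln*) and none lower, beside 34.1% and 6.77% of all genes. Under TMM normalization it was the 4 named above, beside 20% and 12.2%. The 5 calls were also made with the atria alone and with erythroid tags taken out. With the ventricles alone *Postn* was called in the OFT too (adjusted p = 0.0192 by edgeR's exact test). The median log2 ratio of the 9 genes listed on both sides was 1.74 (AVC) and 1.70 (OFT), and the all-gene medians were 0.99 and 0.88. With 1 library per group each test compares libraries, not regions, and the comparisons with the chambers share the chamber libraries.

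By listed tags, *Tnc* had the largest log2 ratio to the chambers among the 9 genes listed on both sides, in the AVC and in the OFT. Its AVC level was 47.7 TPM (42.4 to 53.6), its OFT level 523 (504 to 543), its atria level 3.64 (2.12 to 5.83) and its null level 4.85 (3.73 to 6.21). The ventricles listed none. The atria and null intervals overlapped, and the AVC and OFT were apart from them and from each other. *Tnc* was 25-fold higher in the AVC than in the chambers (log2 ratio 4.64, adjusted p = 5.32e-06 by edgeR's exact test) and, for the OFT, 274-fold (log2 ratio 8.10, adjusted p = 1.61e-12 by edgeR's exact test). With TMM normalization the log2 ratios were 3.69 and 7.24 and both calls held. The chamber level rests on 17 tags, all from the atria. With 5 tags, the largest count that would go unlisted, for each of the 5 *Tnc* tag types missing from a chamber library, the folds would be 6.84 (AVC) and 75 (OFT). The rank in the AVC thus holds for listed tags only. The 6.84 is below the 10.5-fold of *Thbs1* and the 14.2-fold of *Fbn2*, to which no such tags were added.

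*Thbs1*, whose product binds CD47 and CD36 and activates latent TGF-beta, was at 205 (AVC), 335 (OFT), 14.4 (atria), 25.1 (ventricles) and 49.5 TPM (null). The OFT was highest, the atria lowest, and no counting intervals overlapped. It was 10.5-fold higher in the AVC than in the chambers (log2 ratio 3.40, adjusted p = 0.000202 by edgeR's exact test) and 17.2-fold higher in the OFT (log2 ratio 4.11, adjusted p = 1.11e-05 by edgeR's exact test). TMM normalization gave log2 ratios of 2.44 and 3.25, and both calls held.

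*Fn1*, the ligand of integrins alpha 4 beta 1 and alpha 5 beta 1, was at 1567 (AVC), 1042 (OFT), 312 (atria), 160 (ventricles) and 560 TPM (null). The AVC was highest, and the null stood between the OFT and the atria. The log2 ratio to the chambers was 2.71 for the AVC (6.55-fold, adjusted p = 0.00217 by edgeR's exact test) and 2.12 for the OFT (4.35-fold, adjusted p = 0.0157 by edgeR's exact test). With TMM normalization the ratios were 1.76 and 1.27 and neither passed the test, at adjusted p = 0.0527 and 0.164 by edgeR's exact test.

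*Postn*, a ligand of alpha v integrins that supports collagen crosslinking, stood at 145 TPM (135 to 154) for the AVC and 141 TPM (131 to 151) for the OFT, and at 52.5 (atria), 32.9 (ventricles) and 29.0 (null). The AVC and OFT could not be told apart by counting error, nor could the ventricles and the null. Its log2 ratio to the chambers was 1.74 in the AVC (adjusted p = 0.0471 by edgeR's exact test) and 1.70 in the OFT (adjusted p = 0.053 by edgeR's exact test), so the call sits at the threshold. Under TMM normalization the ratios were 0.79 and 0.85 and neither was called, with adjusted p = 0.423 and 0.384 by edgeR's exact test. Of 18 alternatives 8 kept the AVC call.

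*Fbn2*, the fibrillin of early microfibrils, was at 438 (AVC), 284 (OFT), 30.9 (atria), 31.0 (ventricles) and 47.4 TPM (null). The chambers did not differ beyond counting error, and the AVC and OFT were apart from them and from each other. It was 14.2-fold higher in the AVC than in the chambers (adjusted p = 3.45e-05 by edgeR's exact test) and 9.17-fold higher in the OFT (adjusted p = 0.000405 by edgeR's exact test). TMM normalization gave log2 ratios of 2.87 and 2.34, and both calls held.

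*Fbn1*, the other fibrillin, was at 85.9 (AVC), 108 (OFT), 64.3 (atria), 70.8 (ventricles) and 68.4 TPM (null). The intervals of the AVC, ventricles, null and atria overlapped from neighbour to neighbour. Its log2 ratio to the chambers was 0.35 (AVC) and 0.68 (OFT), both below the all-gene median and neither called. With TMM normalization these became -0.60 and -0.18, so no direction can be given.

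*Eln* levels were 5.27 TPM (3.60 to 7.44) for the AVC, 37.8 TPM (32.7 to 43.4) for the OFT and 2.23 TPM for the null. Neither chamber library listed it. Taking 5 tags, the largest count that would go unlisted, for each of the 2 *Eln* tag types in each chamber library, the AVC exceeded the chambers at least 2.34-fold and the OFT did so at least 16.8-fold. The adjusted p by edgeR's exact test was 0.000133 (AVC) and 2.01e-09 (OFT), and both calls held with TMM normalization. Its level in the AVC rests on 32 tags of 1 tag type that starts with T, and in the OFT on 199 tags. The share of gene tags that start with T was 15.4% (AVC), 16.4% (OFT), 34.9% (atria), 24.6% (ventricles) and 34.6% (null). With such tags left out *Eln* had no tags left in the AVC, and was not called for the OFT against the chambers (adjusted p = 0.0767 by edgeR's exact test).

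Of the fibulins, *Fbln2*, which binds fibrillin, fibronectin and aggrecan-type proteoglycans, was at 131 (AVC), 120 (OFT), 38.4 (atria), 40.7 (ventricles) and 16.6 TPM (null). The AVC and OFT overlapped, as did the atria and ventricles, and the null was lowest. The log2 ratio to the chambers was 1.73 for the AVC (adjusted p = 0.0495 by edgeR's exact test) and 1.61 for the OFT (adjusted p = 0.0696 by edgeR's exact test). TMM normalization ended the AVC call, at a log2 ratio of 0.78 and adjusted p = 0.434 by edgeR's exact test, and gave 0.75 in the OFT. Of 18 alternatives 6 kept the AVC call, which was also lost at 3'-most sites, when thinned, with substituted tags, without erythroid tags and against ventricles alone.

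*Fbln1*, found in basement membranes and elastic fibres, was at 71.4 (AVC) and 68.1 TPM (null), with overlapping intervals, and at 27.1 (OFT), 29.1 (atria) and 16.3 (ventricles). The high libraries were thus both canals, wild type and null, and the OFT overlapped with the atria. Its log2 ratio to the chambers was 1.63 in the AVC (adjusted p = 0.0638 by edgeR's exact test) and 0.24 in the OFT (adjusted p = 0.835 by edgeR's exact test). For the OFT the direction flipped to -0.62 with TMM normalization, which gave 0.68 for the AVC.

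*Sparc*, a collagen-binding counter-adhesive protein, was at 985 TPM (AVC), 869 (OFT), 410 (atria) and 648 (ventricles) from tags that match the reference, and at 249 in the null. No intervals overlapped. The log2 ratio to the chambers was 0.91 (AVC) and 0.73 (OFT), close to the all-gene medians, and neither passed the test, at adjusted p = 0.304 and 0.43 by edgeR's exact test. With TMM normalization the ratios were -0.038 and -0.12, so no direction holds under both scalings.

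**Figure D2:**
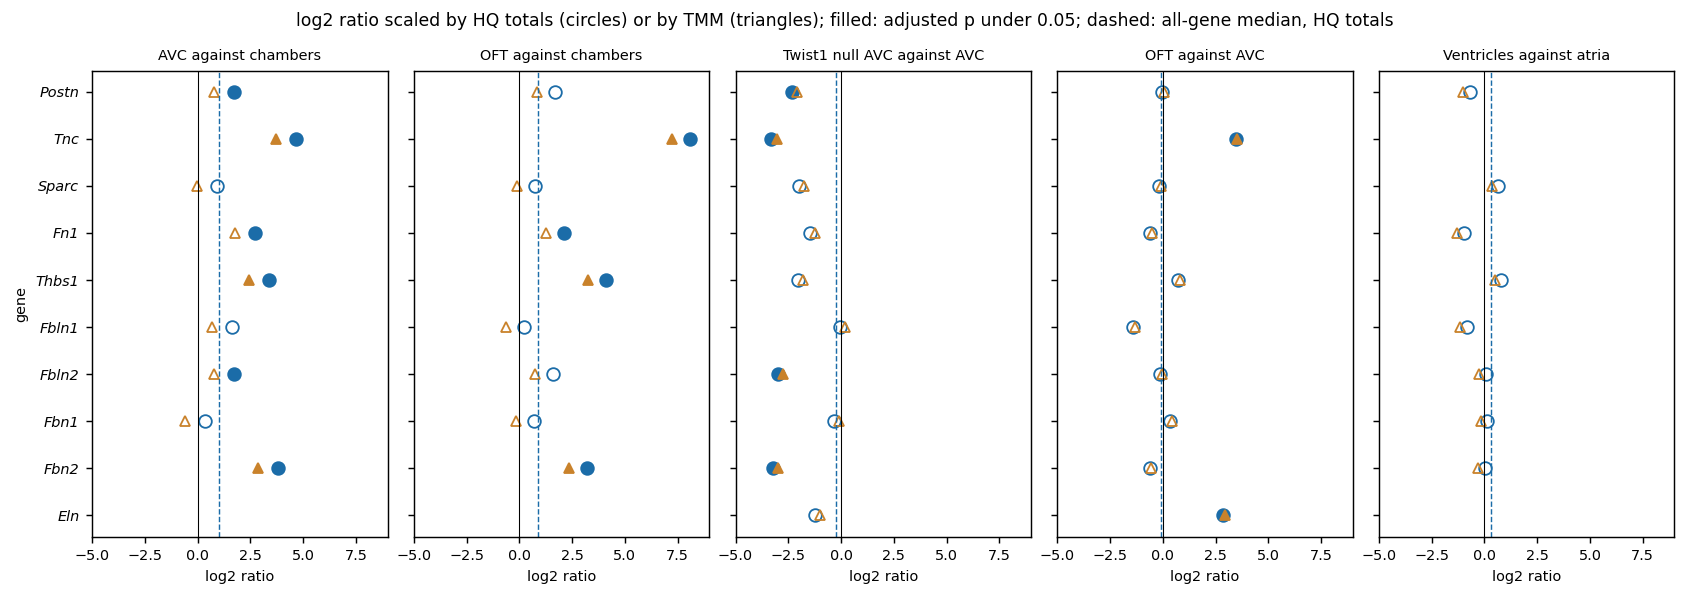
The log2 ratio of each gene in the 5 comparisons, scaled by HQ totals (circles) or TMM (triangles), filled where the adjusted p was under 0.05; the dashed line is the median of all genes under HQ totals, 0.99 for the AVC against the chambers. *Tnc*, *Thbs1* and *Fbn2* are filled under both scalings against the chambers, and ratios with a gene not listed on 1 side (*Eln* against the chambers, *Tnc* in the ventricles) are not drawn.

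Between the cushion-forming regions, 2 of the 10 genes differed. *Tnc* was 11-fold higher in the OFT than in the AVC (adjusted p = 0.0027 by edgeR's exact test) and *Eln* was 7.17-fold higher (adjusted p = 0.0268 by edgeR's exact test). This compares with 1.24% of all genes called higher in the OFT and 1.88% lower, or 1.25% and 1.84% under TMM normalization, which kept both calls. None of the 10 was called lower. *Eln* lost its call with a minimum of 50 tags per gene (adjusted p = 0.0893 by edgeR's exact test) and without tags that start with T (adjusted p = 0.323). Of the genes not called, *Fbln1* had a log2 ratio of -1.40 (adjusted p = 0.41 by edgeR's exact test), *Thbs1* 0.71, *Fbn1* 0.33, *Fn1* -0.59 and *Fbn2* -0.63. *Postn*, *Sparc* and *Fbln2* had ratios between -0.18 and -0.04. The smooth muscle markers summed to 1125 (OFT) and 557 TPM (AVC), and their most abundant gene was *Tagln* at 444 TPM in the OFT and *Cnn1* at 201 in the AVC. None of these 5 markers was called under either scaling. *Myh11*, the marker most specific to differentiated smooth muscle, was not listed in the OFT and was at 0.988 TPM in the AVC. The neural crest markers summed to 86.2 TPM in the OFT, all of it *Ednra*, and 77.5 in the AVC, with *Foxd3* and *Tfap2b* not listed in either. The part of these cells in the result was not tested.

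Between the chambers, 1 of the 9 genes tested differed. *Tnc* had 17 tags in the atria and none in the ventricles, and was called lower in the ventricles (adjusted p = 0.0327 by edgeR's exact test). No fold is given, since 5 unlisted tags for each of its 5 tag types would come to 5.92 TPM in the ventricles, above the 3.64 TPM of the atria. The background was 2.8% of all genes called lower and 3.47% higher, or 3.61% and 2.43% under TMM normalization, and a minimum of 50 tags per gene leaves *Tnc* untested. *Fn1* had 160 TPM in the ventricles against 312 in the atria, a 1.95-fold difference that was not called. *Sparc* had a log2 ratio of 0.66 and *Thbs1* of 0.81, above the all-gene median of 0.31, and neither was called. The ratios of *Fbln2*, *Fbn1* and *Fbn2* lay between 0.01 and 0.14 and fell below 0 with TMM normalization.

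Markers of cushion mesenchyme were also higher in the AVC and OFT. The 8 markers summed to 4186 (AVC), 5018 (OFT), 687 (atria), 942 (ventricles) and 1552 TPM (null). Their most abundant gene was *Vim* in the AVC at 1470 TPM and in both chambers, and *Col3a1* in the OFT at 2337. *Prrx1* was not listed in either chamber and *Snai2* was not listed in the atria. *Sox9* was at 514 (AVC), 377 (OFT), 4.07 (atria), 4.26 (ventricles) and 114 TPM (null). Against the chambers 7 of the 8 markers were higher in the AVC and 7 in the OFT, under either scaling, beside 35.6% and 34.1% of all genes with HQ totals. The part of mesenchyme content in the levels of the 10 genes was not tested.

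Markers of other cell types were also counted. The 11 cardiomyocyte markers summed to 25301 (AVC), 27512 (OFT), 8828 (atria), 24383 (ventricles) and 21801 TPM (null), with *Actc1* the most abundant in each, and 7 of the 11 were called higher in the AVC than in the chambers (5 higher and 1 lower with TMM normalization), beside 35.6% of all genes. The 8 endothelial and endocardial markers summed to 501 (AVC), 539 (OFT), 316 (atria), 386 (ventricles) and 533 TPM (null), and 3 were called higher and 1 lower in the AVC (2 and 2 with TMM normalization), beside 35.6% and 5.53% of all genes. The 6 epicardial markers summed to 270 (AVC), 89.8 (OFT), 309 (atria), 262 (ventricles) and 176 TPM (null). The part of these cell types in the result was not tested.

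In the null AVC the targeted gene was checked first. *Twist1* was at 918 (AVC), 299 (OFT), 63.4 (atria), 55.9 (ventricles) and 4.55 TPM (null), where 59 tags remained at its 3'-most site in the 3'UTR of exon 2. The null was 202-fold lower than the AVC (adjusted p = 3.39e-11 by edgeR's exact test). The sources used here do not give the extent of the deletion, so whether this site lies outside the deleted part is unknown and the check is limited to that extent.

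The reference tags of all 10 genes made up a smaller share of all tags in the null AVC than in the wild type AVC. This does not hold for *Sparc* once a substituted null tag, described below, is counted (log2 ratio 0.25). For *Fbln1* the counting intervals of the null and the AVC overlapped. By reference tags, *Sparc* among them, the median log2 ratio of the 10 genes was -2.02, where the median of all genes was -0.23. Of the 10 genes 4 were called lower, *Postn*, *Tnc*, *Fbln2* and *Fbn2*, and none higher, beside 3.93% of all genes called lower and 5.06% called higher. With TMM normalization *Tnc*, *Fbln2* and *Fbn2* were called lower, beside 3.06% of all genes lower and 6.26% higher. The cushion mesenchyme markers, at 4186 (AVC) and 1552 TPM (null), had 2 of 8 called lower (1 with TMM normalization). Of 11 cardiomyocyte markers 1 was called lower and none higher under either scaling. *Myh6* was at 2696 (AVC) and 290 TPM (null). The part of these cell types in the result was not tested.

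*Tnc* had 290 tags in the AVC and 63 in the deeper null library, a 9.83-fold lower level (log2 ratio -3.30, adjusted p = 0.00327 by edgeR's exact test). *Fbn2* was 9.25-fold lower (log2 ratio -3.21, adjusted p = 0.00321 by edgeR's exact test) and *Fbln2* 7.86-fold lower (log2 ratio -2.97, adjusted p = 0.00726 by edgeR's exact test). The null level of *Fbln2* was also below that of either chamber, while that of *Tnc* overlapped with the atria. That of *Fbn2* lay above both chambers over all sites, through tags of sites listed in the null alone. At its 3'-most site *Fbn2* was lower in the null, at 20.8 TPM against 30.9 (atria) and 29.6 (ventricles). *Postn* was 4.99-fold lower (log2 ratio -2.32, adjusted p = 0.0314 by edgeR's exact test), and this call was lost with TMM normalization at adjusted p = 0.0546, with DESeq2 size factors at 0.0536 and without tags that start with T at 0.0726 (log2 ratio -1.97), by edgeR's exact test.

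*Thbs1* had a log2 ratio of -2.05 (adjusted p = 0.061 by edgeR's exact test), *Fn1* of -1.49 (adjusted p = 0.183 by edgeR's exact test) and *Eln* of -1.24 (adjusted p = 0.361 by edgeR's exact test), and none was called. With 3'-most reference tags alone *Thbs1* and *Sparc* were called lower (adjusted p = 0.0392 and 0.0397 by edgeR's exact test). *Fbn1* had a ratio of -0.33 and *Fbln1* of -0.07, the latter turning to 0.17 with TMM normalization. The tests cannot show equal levels for these genes. The 8 erythroid markers were at 27379 (null) and 2426 TPM (AVC), with 5 called higher and none lower under either scaling. The 5 smooth muscle markers were at 1043 (null) and 557 TPM (AVC). Of these 5, 1 was called higher and none lower, beside 5.06% and 3.93% of all genes, with *Acta2* at 716 (null) and 120 TPM (AVC), while the median log2 ratio of the 4 listed on both sides was -0.33. The part of such cells in the result was not tested.

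The *Sparc* value of the null needs its tag sequences. A tag that differs from the 3'-most *Sparc* tag at position 15, counted from 1 at the first base after the NlaIII site, had 11953 tags in the null (921 TPM) and none in the 4 wild type libraries. It carries the substitution A15G. The sequences are shown in lower case with the base that differs in capitals.
Sparc, reference tag: catgcaaactctcacagcAat
Sparc, tag listed in the null alone: catgcaaactctcacagcGat

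The reference form of this tag counted 3378 (AVC), 2528 (OFT), 1814 (atria), 2541 (ventricles) and 1676 tags (null). In the null 87.7% of the tags of these forms were the substituted form. With it counted as *Sparc*, the null stood at 1170 TPM (1151 to 1188) instead of 249, and the log2 ratio to the AVC went from -1.99 to 0.25. The lower *Sparc* level in the null thus holds for summed reference tags and not with the substituted tag counted. By site, the reference tags differed in direction. The log2 ratio was -2.11 at the 3'-most site and -2.37 for the internal coding tag. It was -0.015, 2.87, 0.70 and 1.12 at sites 2, 3, 4 and 8 from the 3' end. Such a form, listed in 1 library alone and there at least as abundant as its reference form, was found for 38 genes in the null, against 1 (AVC), 0 (OFT), 2 (atria) and 1 (ventricles), of 4973 genes with a reference tag of at least 20 TPM in the AVC. For the AVC library itself the level of the reference tag was taken in the OFT. *Sparc* was the only member among the 38. Whether the base is an ICR allele was not tested, as no ICR sequence was used here.

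The same search was made for the other members. *Thbs1* had a tag with C15G, counted the same way, with 23 tags in the null beside 47 of its reference form at the next site upstream of the 3'-most. *Fn1* had a tag with T12G with 24 tags in the null and 53 in the OFT. A wider search, for null tags with 2 substitutions or a gained or lost base, found 3 tag types, of 20 and 10 tags for *Fn1* and 122 tags for *Sparc*. No tag of either kind was found in the null for *Tnc*, *Fbln2* or *Postn*, and for *Fbn2* there were 6 tags with 1 substitution. Both searches compared the 17 bases after a site, so a change in an NlaIII site itself could not be found by them. Strain differences of that kind were not tested for any member.

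*Sparc* also differed between libraries in which site its tags came from. The internal tag in exon 9 counted 2427 (AVC), 1920 (OFT), 86 (atria), 147 (ventricles) and 1001 tags (null). It made up 40.5% of the *Sparc* tags in the AVC (39.3 to 41.8) and 41.9% in the OFT (40.5 to 43.4), but 4.49% in the atria (3.61 to 5.52) and 5.37% in the ventricles (4.56 to 6.29). In the null its share was 31.0% of reference tags and 6.60% with the substituted tag counted. The 3'-most tag alone had a log2 ratio to the chambers of 0.18 in the AVC (0.12 to 0.25, counting error) and -0.030 in the OFT (-0.10 to 0.04). The internal tag alone had 3.93 and 3.80. With TMM normalization the 3'-most tag was at -0.77 and -0.89 and the internal tag at 2.98 and 2.94. The tag is the 3'-most in 5 of the 7 annotated transcripts that hold it, and none of those 5 is linked to RefSeq.

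**Figure D3:**
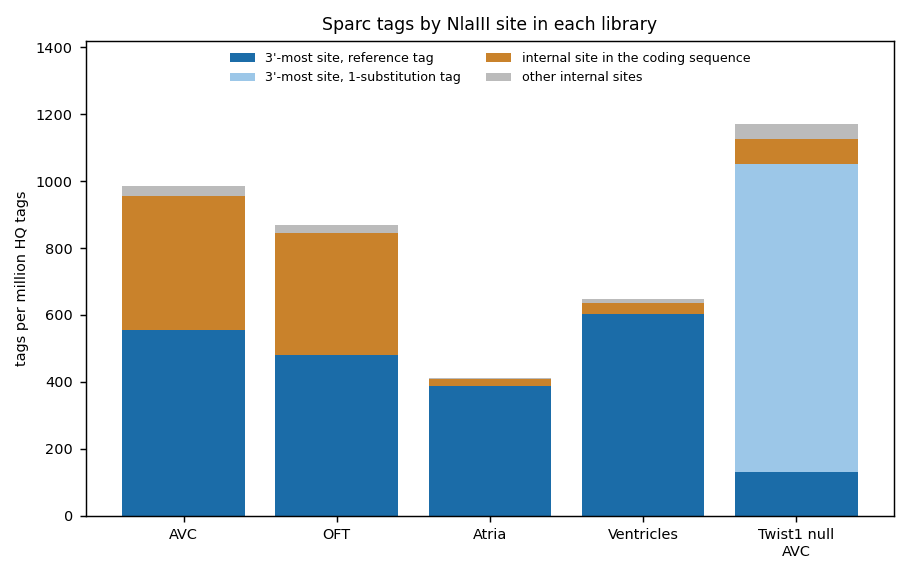
Levels of *Sparc* tags in TPM, stacked by site, in each library: the reference tag of the 3'-most site, the tag with A15G of the same site, the internal coding tag and all other internal tags. The internal coding tag is at 399 (AVC) and 18.4 TPM (atria), and the substituted tag, at 921 TPM, is in the null bar alone.

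A run of adenines follows that internal site. Between the tag and the next NlaIII site the longest run is 16 adenines. Of the 79 tag types of the 10 genes, 69 were internal and 3 of these had a run of at least 10 adenines before the next site, the *Sparc* tag, a coding *Fbn2* tag (13 adenines) and the second-last *Fbln2* tag (11 adenines). Over all RefSeq-linked transcripts 0.847% of 284512 internal tags had such a run. Among genes with at least 20 TPM at the 3'-most site, 84.7% of internal tags with a run and 12.9% of those without were listed in the AVC. In the OFT these shares were 81.3% and 13.1%, in the null 80.1% and 18%, in the atria 32.1% and 4.84%, and in the ventricles 34.6% and 5.01%. The part of these runs in the levels was not tested.

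The coding *Fbn2* tag counted 588 (AVC), 240 (OFT), 0 (atria), 6 (ventricles) and 108 tags (null). Without it and all other internal tags, *Fbn2* kept log2 ratios to the chambers of 3.44 in the AVC and 2.94 in the OFT, both called. TMM normalization put that 3'-most tag at 2.48 and 2.08. The *Fbln2* tag had 44, 32, 0, 0 and 64 tags in the same order, so its share of *Fbln2* tags went from 5.53% in the AVC (4.05 to 7.36) to 29.6% in the null (23.6 to 36.2). The 3'-most *Fbln2* tag alone was 745 tags in the AVC and 152 in the null, a log2 ratio of -3.39.

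*Fbn2* tags also came from other sites in the null. The 2 sites next to the 3'-most one had 93 and 144 tags there and none in any wild type library. The 3'-most site gave 74.7% of *Fbn2* tags in the AVC (73.0 to 76.3), 81.8% (OFT), 100% (atria), 95.4% (ventricles) and 43.9% in the null (39.9 to 47.9). Over all genes this share was 70.5%, 69.1%, 80.3%, 74.8% and 67.5% in the same order. Counting just that 3'-most site, the null stood at a log2 ratio of -3.98 to the AVC, against -3.21 over all sites. The value of -3.98 leaves out the 93 and 144 null tags of the neighbouring sites. Strain and genotype cannot be told apart in this shift of sites, and its cause was not tested.

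**Figure D4:**
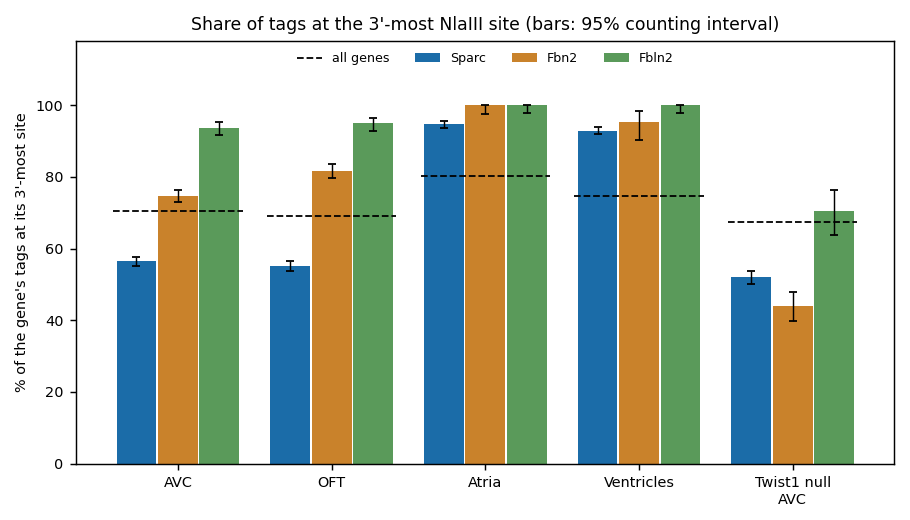
Share of the tags of *Sparc*, *Fbn2* and *Fbln2* (reference tags) that came from the 3'-most NlaIII site, in percent with 95% counting intervals, with the share over all genes as a dashed line. *Sparc* is at 56.4% in the AVC and 94.8% in the atria, and *Fbn2* falls to 43.9% in the null.

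*Fbln1* tags separated by transcript. Its RefSeq-linked transcripts, Fbln1-201 and Fbln1-202, end in different exons and so have tags of their own. Tags of Fbln1-202 alone were at 40.5 (AVC), 15.4 (OFT), 4.29 (atria), 4.26 (ventricles) and 42.5 TPM (null). Tags of Fbln1-201 alone were at 23.9, 9.49, 24.9, 12.1 and 22.8 TPM in the same order. Of the tags specific to 1 transcript, Fbln1-202 made up 62.9% in the AVC (57.9 to 67.7), 61.8% in the OFT (52.9 to 70.2) and 65.1% in the null (61.7 to 68.3), but 14.7% in the atria (9.22 to 21.8) and 26.1% in the ventricles (16.3 to 38.1). The chamber intervals overlapped each other and lay apart from those of the AVC, OFT and null. The Fbln1-202 tag had a log2 ratio of 3.18 between the AVC and the chambers (2.68 to 3.71, counting error), and the main Fbln1-201 tag 0.34 (-0.03 to 0.70). With TMM normalization these were 2.23 and -0.62, so the latter has no direction under both scalings. With 3'-most tags alone, which here are those of Fbln1-202, *Fbln1* was called higher in the AVC than in the chambers at adjusted p = 0.000681 by edgeR's exact test.

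**Figure D5:**
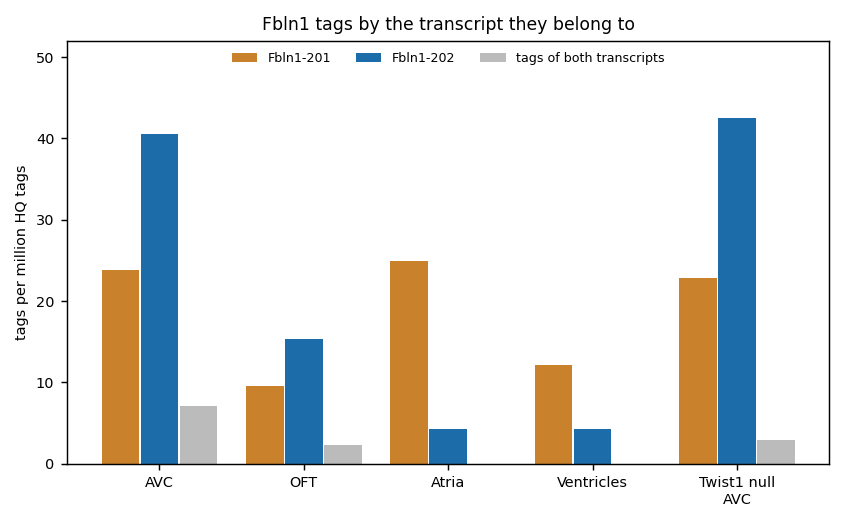
Levels of *Fbln1* tags in TPM by library, split into tags found in Fbln1-201 alone, in Fbln1-202 alone and in both. Tags of Fbln1-202 are the larger group in the AVC, OFT and null, at 40.5, 15.4 and 42.5 TPM, and the smaller group in the atria and ventricles, at 4.29 and 4.26 TPM.

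In the null the Fbln1-201 tags were spread differently over its sites. The Fbln1-201 tag printed with the sequences had 119 tags in the AVC and 104 in the null, while the next tag upstream had 19 and 175. Summed, Fbln1-201 tags were at 23.9 (AVC) and 22.8 TPM (null). Fbln1-202 tags were at 40.5 (AVC) and 42.5 TPM (null).

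The genes that work with these proteins were followed in lists. Of 22 other matricellular genes, 11 were tested in the AVC against the chambers, with 2 called higher and none lower (median log2 ratio 0.59), beside 35.6% and 5.53% of all genes. With TMM normalization 1 was higher and 2 were lower. *Tgfbi*, a periostin relative, was at 117 (AVC), 223 (OFT), 1.29 (atria), 3.79 (ventricles) and 14.1 TPM (null). Its log2 ratio to the chambers was 5.56 (AVC) and 6.5 (OFT), and -3.05 in the null against the AVC, all called under both scalings. The study reports far lower *Tgfbi* levels from these libraries, and a fall in the null that did not pass its threshold. The cause of this difference was not tested. *Ccn4*, a connective tissue growth factor relative, was higher in the AVC at a log2 ratio of 2.68, a call lost with TMM normalization. Against the chambers the OFT had 4 of 12 higher, *Tgfbi*, *Thbs3* and *Spock3* among them, and *Smoc1* lower (3 and 1 with TMM normalization), beside 34.1% and 6.77% of all genes. *Smoc1*, *Spock3* and *Thbs3* were at 4.26 TPM or less in every library. In the null *Spp1*, which encodes osteopontin, was called higher at 1.54 TPM where the AVC listed none, a call lost when libraries were thinned to equal depth.

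Of 29 other genes of elastic fibres, microfibrils and crosslinking, 23 were tested in the AVC against the chambers, with 15 called higher and 1 lower (9 and 4 with TMM normalization), at a median log2 ratio of 2.15. Over all genes 35.6% were higher and 5.53% lower (19.4% and 11.9% with TMM normalization). In the OFT 15 of 24 were higher and 1 lower (10 and 1 with TMM normalization), at a median of 2.26, beside 34.1% and 6.77% of all genes (20% and 12.2%). *Ltbp4*, a latent TGF-beta binding protein that also guides elastin assembly, was at 57.3 (AVC), 86.6 (OFT), 1.5 (atria) and 2.62 TPM (null), with none in the ventricles. *Fbln5*, needed for elastic fibre assembly, was at 12.7 TPM (OFT), 2.96 (AVC) and 0.771 (null), and not listed in either chamber, so the OFT exceeded the chambers at least 11.3-fold. *Furin*, a protease that processes profibrillins, was at 35.4 TPM (AVC), 15.4 (OFT) and 1.29 (atria), and was called in both regions. *Thsd4*, a microfibril-binding gene, was called higher in the AVC, at 8.56 TPM, where the chambers listed none.

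*Efemp1*, another fibulin gene, ran the other way. Its levels were 102 (atria), 76.7 (ventricles), 5.43 (AVC) and 6.16 TPM (null), with none in the OFT. It was called lower in the AVC (log2 ratio -4.05, adjusted p = 2.32e-05 by edgeR's exact test, and called under TMM normalization too) and in the OFT, by at least 94.7-fold. The crosslinking enzyme gene *Lox* was at 5.36 TPM or less in every library.

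In the null 3 of 23 genes of this list were lower and 1 higher, beside 3.93% and 5.06% of all genes. *Ltbp1* went from 121 TPM in the AVC to 5.16 in the null (log2 ratio -4.55, adjusted p = 5.53e-05 by edgeR's exact test) and *Ltbp4* had a log2 ratio of -4.45. *Ltbp3* had a ratio of -2.38, a call lost with TMM normalization. *Efemp2* was higher, at 16.7 TPM against 2.63. *Furin* was at 65.5 TPM in the null and was not called. Between the OFT and the AVC 1 of 25 was higher, *Adamtsl5*, and 1 lower, *Efemp1*, beside 1.24% and 1.88% of all genes. The *Adamtsl5* call rests on 3.80 TPM against none and was lost when thinned to equal depth and without tags that start with T.

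Of 16 genes for cell surface receptors and processing enzymes of these proteins, 13 were tested in the AVC against the chambers and 9 were called higher (5 with TMM normalization), beside 35.6% of all genes (19.4%). *Itgb1*, the beta chain shared by the fibronectin receptors, was at 849 (AVC), 912 (OFT), 53.4 (atria), 55.4 (ventricles) and 552 TPM (null). *Itga4* was at 142 (AVC), 43.5 (OFT), 4.93 (atria), 6.16 (ventricles) and 51.8 TPM (null). *Itgb3*, a chain of the vitronectin receptor that also binds periostin, was at 27.1 (OFT) and 8.23 TPM (AVC), and was not listed in the chambers. *Bmp1*, a protease that processes matrix precursors, was at 57.8 (AVC), 63.2 (OFT), 5.14 (atria) and 2.13 TPM (ventricles). Against the chambers the OFT had 6 of 13 higher and 1 lower (5 and 1 with TMM normalization), beside 34.1% and 6.77% of all genes. In the null 1 of 14 was called, beside 5.06% of all genes called higher, *Sdc4*, a fibronectin co-receptor, which was higher at 21.4 TPM against 3.62, a call lost without tags that start with T, while *Itgb1* was not called.

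The genes whose levels ran most like those of the members other than *Postn* were found by Pearson's r of log2(TPM + 1) over the 5 libraries, among 7021 genes with at least 20 TPM in 1 library. They are given as a description, since 5 libraries of unequal depth and composition set every r. *Thbs1* was most like *Tgfbi* and the laminin gene *Lamb1*. *Fn1* was most like *Gas6* and *Sh3pxd2a*, *Fbln1* like *Cd36* and *Rgs6*, and *Eln* like *Stmn2* and *Mthfd2*. *Tnc* was most like *Commd9* and *Fam174b*, *Fbn2* like *Dnmt1* and *Cnpy2*, and *Fbn1* like *Stmn4* and *Cdh3*. *Fbln2* was most like *Plpbp* and *Imp3*. *Sparc*, by reference tags alone and thus at 249 TPM in the null, was most like *Pde6d* and *Cers2*, and this was not computed with the substituted tag counted.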

How the data were processed

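The deposited files list tag types with their counts. The authors kept the 17 bases after the NlaIII site of reads past the Chastity filter, and tag types with more than 5 tags, without normalization. The submitters' notes name mm9, and the steps from counts to genes were redone here.

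Sense matches were sought in GENCODE M21 (GRCm38) among its 33363 transcripts with a RefSeq link, each extended by 20 adenines. Of 315529 virtual tags 308949 belong to 1 gene, and these were summed per gene. In the AVC, OFT, atria, ventricles and null 70.7, 72.2, 73.6, 74.5 and 73.8% of tags were of 1 gene. Matches elsewhere in the genome were not looked for. Python 3.11.15, numpy 2.4.6, pandas 2.3.3, scipy 1.17.1 and matplotlib 3.10.9 were used.

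The 5 comparisons were made in R 4.3.3 with edgeR 4.0.16, by its exact test (two-sided) at the dispersion of 0.12 of the study's methods, with HQ totals as library sizes. The p were adjusted by Benjamini-Hochberg over all genes tested (12503, 12451, 12963, 12541 and 10705 for AVC and OFT against chambers, null against AVC, OFT against AVC and ventricles against atria). Atria and ventricles were summed as chambers. No covariate was used. The comparisons share libraries. The study used the unadjusted p, given here as an alternative.

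The members and lists were chosen with earlier results of these data known. Named are the members, *Twist1*, at most 4 called genes per list and comparison by smallest adjusted p, the most abundant marker of a list and markers at 0, the region markers, and the 2 genes most like each member. *Furin*, *Itgb1* and Fbln1-202 in the null, *Lox*, *Sox9*, *Acta2*, *Myh6* and *Myh11* in the AVC were added after their values were seen.

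On simulated data at these depths, in the order of comparisons above, the test recovered 15, 8, 21, 6 and 8% of 100 genes changed 4-fold and 59, 43, 58, 49 and 57% of 100 changed 8-fold. Only these 200 genes were changed in each simulation. In the data 4445 (AVC) and 4252 genes (OFT) were called higher than in the chambers. The adjustment of p depends on that number, so the simulated shares need not hold for the comparisons reported.

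Of 18 alternative settings 17 were planned and 1 was chosen after seeing the data (tags with 1 substitution added together with TMM normalization). They change the scaling (TMM, size factors of DESeq2 1.42.0, totals without erythroid tags), the dispersion (0.05 and 0.4), the p, the filter, the sites, the tags, the depth, the annotation and the chamber libraries. The genes most like *Postn* are not reported here.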

Additional observations from a re-analysis of the deposited data

Results flagged for a closer look

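A *Sparc* tag with A15G had 11953 tags in the null AVC and none in the wild type libraries, in data that the matching to reference tags leaves out.

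A *Thbs1* tag with C15G had 23 tags in the null AVC and none in the wild type libraries, also outside the reference tags.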

How the results depend on the processing

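No paired analysis was possible because each group has 1 library. Of 872 alternative values for the 10 genes and *Twist1*, 745 kept their direction and side of the threshold, 55 lost a call, 26 gained one and 46 turned in direction. The cause of each change was not tested. Precision is limited by single libraries and by the dispersion: at 0.4 the members called higher fell to 0 for the AVC and 2 for the OFT against chambers and 0 for OFT against AVC, and those called lower to 0 in the null and 0 in the ventricles. In the AVC against chambers 4 were called with TMM normalization, 4 with DESeq2 size factors, 4 with at least 50 tags per gene and 4 without tags that start with T. In the null 7 were called lower at a dispersion of 0.05, beside 17.7% of all genes, and 7 at unadjusted p, beside 12.7%. *Sparc* by reference tags was among them. For OFT against AVC 1 remained with at least 50 tags per gene and 1 without tags that start with T, beside 0.186% and 1.67% of all genes higher. For ventricles against atria 0 were called lower with at least 50 tags, beside 0.31% of all genes.

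Log2 ratios that turned with TMM normalization, DESeq2 size factors and substituted tags with TMM normalization were, for the AVC against chambers, -0.038, -0.075 and -0.026 for *Sparc* and -0.60, -0.64 and -0.59 for *Fbn1*. For the OFT against chambers they were -0.12, -0.14 and -0.11 for *Sparc*, -0.62, -0.64 and -0.66 for *Fbln1* and -0.18, -0.19 and -0.17 for *Fbn1*. They were 0.17, 0.16 and 0.17 for *Fbln1* in the null and 0.045, 0.045 and 0.043 for *Postn* in the OFT against AVC. For ventricles against atria they were -0.24, -0.23 and -0.17 for *Fbln2*, -0.18, -0.17 and -0.17 for *Fbn1* and -0.31, -0.30 and -0.32 for *Fbn2*.

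Other settings also turned a ratio. *Sparc* in the OFT against chambers was -0.030 at 3'-most sites, and *Fbln1* was -0.10 against atria alone. *Sparc* in the null was 0.25 with substituted tags and 0.48 with TMM normalization added. *Fbln1* in the null was 0.28 without tags that start with T. For ventricles against atria, totals without erythroid tags gave -0.20 for *Fbln2*, -0.15 for *Fbn1* and -0.28 for *Fbn2*, and leaving out tags that start with T gave -0.11, -0.075 and -0.19. *Fbn2* there was -0.062 with tag types over 10 tags, -0.060 at 3'-most sites, -0.011 with substituted tags, -0.019 without tags near a tag 100 times as abundant and -0.0047 when thinned to equal depth.

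Over all genes the calls were, for the AVC against chambers 4445 higher and 692 lower, 2425 and 1488 with TMM normalization, 6415 and 1355 at a dispersion of 0.05, 597 and 37 at 0.4 and 3095 and 423 with at least 50 tags. They were, for the OFT against chambers 4252 higher and 843 lower, 2495 and 1513 with TMM normalization, 5920 and 1437 at a dispersion of 0.05, 697 and 83 at 0.4 and 2747 and 484 with at least 50 tags. The calls were, for the null against AVC 656 higher and 510 lower, 811 and 397 with TMM normalization, 1828 and 2289 at a dispersion of 0.05, 0 and 0 at 0.4 and 321 and 278 with at least 50 tags. The calls were, for the OFT against AVC 156 higher and 236 lower, 157 and 231 with TMM normalization, 418 and 547 at a dispersion of 0.05, 0 and 0 at 0.4 and 18 and 29 with at least 50 tags. The calls were, for ventricles against atria 371 higher and 300 lower, 260 and 386 with TMM normalization, 1062 and 725 at a dispersion of 0.05, 0 and 0 at 0.4 and 20 and 21 with at least 50 tags. The share of calls that were higher went from 86.5 to 62% with TMM normalization for the AVC against chambers, from 83.5 to 62.3% for the OFT, from 56.3 to 67.1% for the null and from 55.3 to 40.2% for the ventricles. With DESeq2 size factors the counts were 2383 higher and 1522 lower for the AVC and 2475 and 1545 for the OFT against chambers, and with substituted tags and TMM normalization 2440 and 1526 for the AVC and 2516 and 1529 for the OFT. At unadjusted p they were 1539 and 1648 in the null, 655 and 922 for the OFT against AVC and 1189 and 967 for the ventricles. With tag types over 10 tags they were 1168 and 784, 423 and 639, and 941 and 896 in that order, and at 3'-most sites 730 and 870 in the null. Thinned to equal depth the null had 451 higher and 620 lower, or 42.1% higher. Totals without erythroid tags put the higher share for the ventricles at 40.9%.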
